A study of Mus musculus with 43 samples.

Results

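*Rplp0* and 3 processed pseudogenes that copy its mRNA, *Gm8730*, *Gm9625* and *Gm14165*, were followed over genotypes and stages in sorted L2/3 neurons. They are the 4 rows with these names among the 56980 genes of the count table. They were chosen by their counts in *Cux2* KO against WT neurons at E19, where *Rplp0* was lower and the 3 pseudogenes were higher, so the values of that contrast are given here as a description without a test. RNA-seq was made from GFP+ L2/3 neurons of the somatosensory cortex, labelled by in utero electroporation (IUE) of a GFP plasmid at E15.5 and isolated by fluorescence-activated cell sorting. The mice were C57BL6JRccHsd, and the mutant lines were kept as heterozygotes on that strain. The 43 libraries in 13 groups covered 3 stages. At E19 there were 4 libraries of each sex from WT, *Cux1* KO and *Cux2* KO mice. At P4 there were 3 of each sex from WT and *Cux2* KO mice and 2 from *Cux1* KO males, and at P7 there were 2 from WT females and 3 from WT males. *Cux2* KO neurons came from germline *Cux2*-/- mice. *Cux1* KO neurons at E19 came from *Cux1* ΔC/ΔC embryos, which carry the mutant allele in all cells. Those at P4 came from *Cux1* f/Δ23 mice, which had received a CRE plasmid together with the GFP plasmid, so that only electroporated cells lost the floxed exon. In these mice the GFP plasmid was itself switched on by CRE. The *Cux1* KO groups of E19 and P4 thus differ in allele and in the added plasmid as well as in age. WT, *Cux1* ΔC/ΔC and *Cux2*-/- mice received the GFP plasmid only.

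*Rplp0* encodes P0, the core protein of the stalk of the large ribosomal subunit. P0 anchors dimers of the small acidic proteins P1 and P2, encoded by *Rplp1* and *Rplp2*, and the stalk recruits the elongation factors that drive translation. A processed pseudogene arises when an mRNA is reverse transcribed and inserted elsewhere in the genome, so it lacks introns. Ribosomal protein genes are abundantly transcribed and have many such copies. A short read from the *Rplp0* mRNA can match a young copy as well as the gene itself, which makes the counts of the single rows uncertain.

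In the GENCODE M39 annotation of GRCm39, *Rplp0* (ENSMUSG00000067274) lies on the plus strand of chromosome 5, and its main transcript runs from 115697526 to 115701793. That transcript has 7 exons and 1365 bases, of which 954 code for protein. *Cux2*, the gene mutated in the *Cux2* KO, starts 6.29 Mb further along chromosome 5, and *Cux1* lies 20.57 Mb away on the same chromosome. The 3 pseudogenes lie on other chromosomes. *Gm8730* (ENSMUSG00000063696, processed pseudogene, chr8:103591477-103592430, minus strand) was 98.74% identical to the coding sequence, with 12 substitutions. *Gm9625* (ENSMUSG00000097906, processed pseudogene, chr13:67958365-67959319, plus strand) was 97.38% identical, with 24 substitutions and 1 inserted base, and it overlaps isoforms of the protein-coding gene *Zfp493*. *Gm14165* (ENSMUSG00000081434, transcribed processed pseudogene, chr2:152195535-152196486, plus strand) was 97.17% identical, with 25 substitutions and 2 missing bases.

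The 3 pseudogenes carried the same base, different from that of *Rplp0*, at 7 positions of the coding sequence, counted from 1 at the A of the start codon. These substitutions were T72C, G138C, T192C, A390G, A393G, A696G and A784G. Beyond them *Gm8730* differed from *Rplp0* at 5 positions, while *Gm9625* and *Gm14165* differed at 18 and 20. The stretch of 150 bases with the most of the shared substitutions, coding positions 47 to 196, is shown for all 4 genes because it holds 3 of the 7. In the *Rplp0* line capitals mark the bases that differ in any of the pseudogenes, and in the other lines those that differ from *Rplp0*. The *Rplp0* line is mRNA, whose genomic span on the plus strand, introns included, is chr5:115697940-115698941 of GRCm39.
Rplp0: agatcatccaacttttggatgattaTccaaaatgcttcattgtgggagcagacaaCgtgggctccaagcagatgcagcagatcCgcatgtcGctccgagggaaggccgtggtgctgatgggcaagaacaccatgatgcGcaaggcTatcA
Gm8730: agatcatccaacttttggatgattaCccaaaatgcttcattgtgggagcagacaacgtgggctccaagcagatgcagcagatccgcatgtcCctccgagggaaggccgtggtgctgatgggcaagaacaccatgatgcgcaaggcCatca
Gm9625: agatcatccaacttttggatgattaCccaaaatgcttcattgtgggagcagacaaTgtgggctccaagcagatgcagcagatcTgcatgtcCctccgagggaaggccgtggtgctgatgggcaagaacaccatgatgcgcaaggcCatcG
Gm14165: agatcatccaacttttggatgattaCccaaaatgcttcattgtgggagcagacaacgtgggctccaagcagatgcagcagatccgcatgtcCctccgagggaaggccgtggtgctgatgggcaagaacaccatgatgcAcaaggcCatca
In this stretch *Gm8730* carried the 3 shared substitutions and no other, *Gm14165* had 4 differences and *Gm9625* had 6. The pseudogene stretches lie at chr8:103592235-103592384, chr13:67958411-67958560 and chr2:152195581-152195730.

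Other stretches did not tell the genes apart at all. The longest run that was the same in all 4 genes, 69 bases at coding positions 870 to 938, is shown because a read of 60 bases placed within it fits every one of them (plus strand, chr5:115701419-115701487 in *Rplp0*).
All 4 genes: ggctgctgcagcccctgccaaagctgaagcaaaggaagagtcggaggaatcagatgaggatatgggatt
Of the 895 windows of 60 bases, the read length, in the *Rplp0* coding sequence, 415 (46.37%) occurred without mismatch in at least 1 of the 3 pseudogenes, and 10 in all 3. A shared substitution was covered by 357 windows (39.89%). *Gm8730* alone held 29.94% of the windows, *Gm9625* 25.47% and *Gm14165* 6.03%. Only the primary alignment of a read was counted. Which of several equally good places became the primary one is not given in the sources used here. A read moved from one of the 4 rows to another leaves their sum unchanged by construction, and the sum is therefore given beside each gene.

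**Figure D1:**
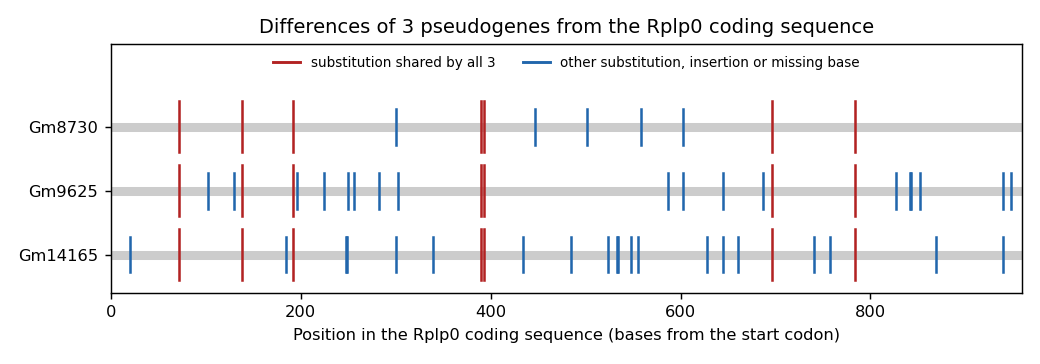
Positions at which Gm8730, Gm9625 and Gm14165 differ from the Rplp0 coding sequence of 954 bases (x axis, bases from the start codon). Long red lines mark the 7 substitutions that all 3 share, and short blue lines mark all other differences, which are fewest in Gm8730.

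The 24 libraries of E19 held 13321095 to 20715732 counts each, the 14 of P4 held 19499125 to 60559585, and the 5 of P7 held 15312029 to 27633827, with 17049 to 24252 genes detected. The 4 genes together took 14978 to 34941 counts per library, so counting error was small: the 95% Wilson interval of the *Rplp0* share of these counts reached at most 0.764 percentage points to either side. Reads carried no molecular identifiers, so intervals cover counting error only. Counts were normalized by TMM and are given as CPM, each count scaled to a common library size. Summed over the marker list, the L2/3 excitatory neuron genes (8 of 8 found) stood at 3200 to 5470 CPM at E19. In WT they were at 692 to 858 CPM at P4 and at 379 to 492 CPM at P7. No marker of the list was at 0 in all libraries. Astrocyte and radial glia markers (5 of 5 found) summed in WT to 1110 to 1620 CPM at E19, 1960 to 4130 CPM at P4 and 4860 to 6490 CPM at P7. At P4 and P7 they were thus above the L2/3 sums, and the purity of the sorted cells was not tested. *Cux2* was counted at 267 to 417 CPM in *Cux2* KO neurons at E19 and at 332 to 517 CPM in WT neurons (log2FC -0.31, edgeR adjusted p = 0.349). *Cux1* differed between *Cux1* KO and WT neurons at E19 by a log2FC of -0.33 (adjusted p = 0.0864). At P4 the values were 0.23 for *Cux2* in *Cux2* KO neurons (adjusted p = 0.971) and 0.12 for *Cux1* in *Cux1* KO males (adjusted p = 0.912). Counts over a whole gene need not show a mutation in part of it, so they do not check the genotypes. Neither the labels nor the methods used here tie libraries to separate litters, and p-values measure the spread between these libraries. In bulk RNA of sorted cells, fewer cells with an RNA and less RNA per cell cannot be told apart.

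In WT neurons at E19 *Rplp0* was the most counted of the 4 genes. It was at 670, 708, 776 and 696 CPM in the females and at 628, 812, 713 and 801 CPM in the males. In *Cux2* KO neurons it was at 422, 470, 385 and 506 CPM in females and at 389, 417, 435 and 463 CPM in males, and each of these 8 libraries lay below each WT library. The mean was 436 ± 41.6 CPM against 725 ± 64.9 in WT (SD, n = 8 each), a ratio of 0.601 and a fitted log2FC of -0.74 (SE 0.0722).

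The 3 pseudogenes moved the other way in the same libraries. *Gm8730* was at 173, 170, 196 and 187 CPM in WT females and 156, 189, 206 and 209 CPM in WT males. In *Cux2* KO neurons it was at 321, 345, 316 and 392 CPM in females and 292, 324, 364 and 341 CPM in males. The lowest KO library was above the highest WT library, and the ratio of means was 1.81 (log2FC 0.85, SE 0.0756). *Gm9625* was at 312 ± 27.8 CPM in *Cux2* KO and 191 ± 15.7 in WT neurons (n = 8 each, ratio 1.64, log2FC 0.71). *Gm14165*, the least counted of the 4, was at 87.6 ± 11.2 CPM against 46.7 ± 5.33 (ratio 1.87, log2FC 0.90). For all 4 genes the groups were apart, which their choice from this contrast made likely. The share of all genes whose groups were apart was not counted. As another measure, 0.12% of the 18356 genes tested in this contrast had an adjusted p under 0.05. Since the genes were taken from among the genes called here, nothing is read from their count.

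The sum of the 4 genes was nearly level between these groups. It was at 1150 ± 97.0 CPM in WT neurons (987 to 1280) and at 1170 ± 107 CPM in *Cux2* KO neurons (1050 to 1370), with a fitted log2FC of 0.03 (SE 0.0677). The groups overlapped over most of their range. *Rplp0* accounted for 63.2% ± 1.45 of the summed counts in WT and for 37.2% ± 0.834 in *Cux2* KO libraries. The lowest WT share was 60.8% and the highest KO share was 38.4%. *Gm8730* held 16.2% of the sum in WT and 28.7% in KO libraries, *Gm9625* held 16.6% and 26.6%, and *Gm14165* held 4.07% and 7.46%.

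Per kilobase of transcript the order of the genes changed with these values. In WT neurons at E19 *Rplp0* stood at 531 ± 47.6 CPM per kb, above *Gm9625* (199 ± 16.5) and *Gm8730* (195 ± 19.6), which did not differ beyond their SD, and *Gm14165* (49.1 ± 5.60) came last. In *Cux2* KO neurons at E19 *Gm8730* (353 ± 32.3 CPM per kb), *Gm9625* (327 ± 29.1) and *Rplp0* (319 ± 30.5) lay close together, *Gm9625* within its SD of both others, and *Gm14165* was at 92.0 ± 11.7.

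**Figure D2:**
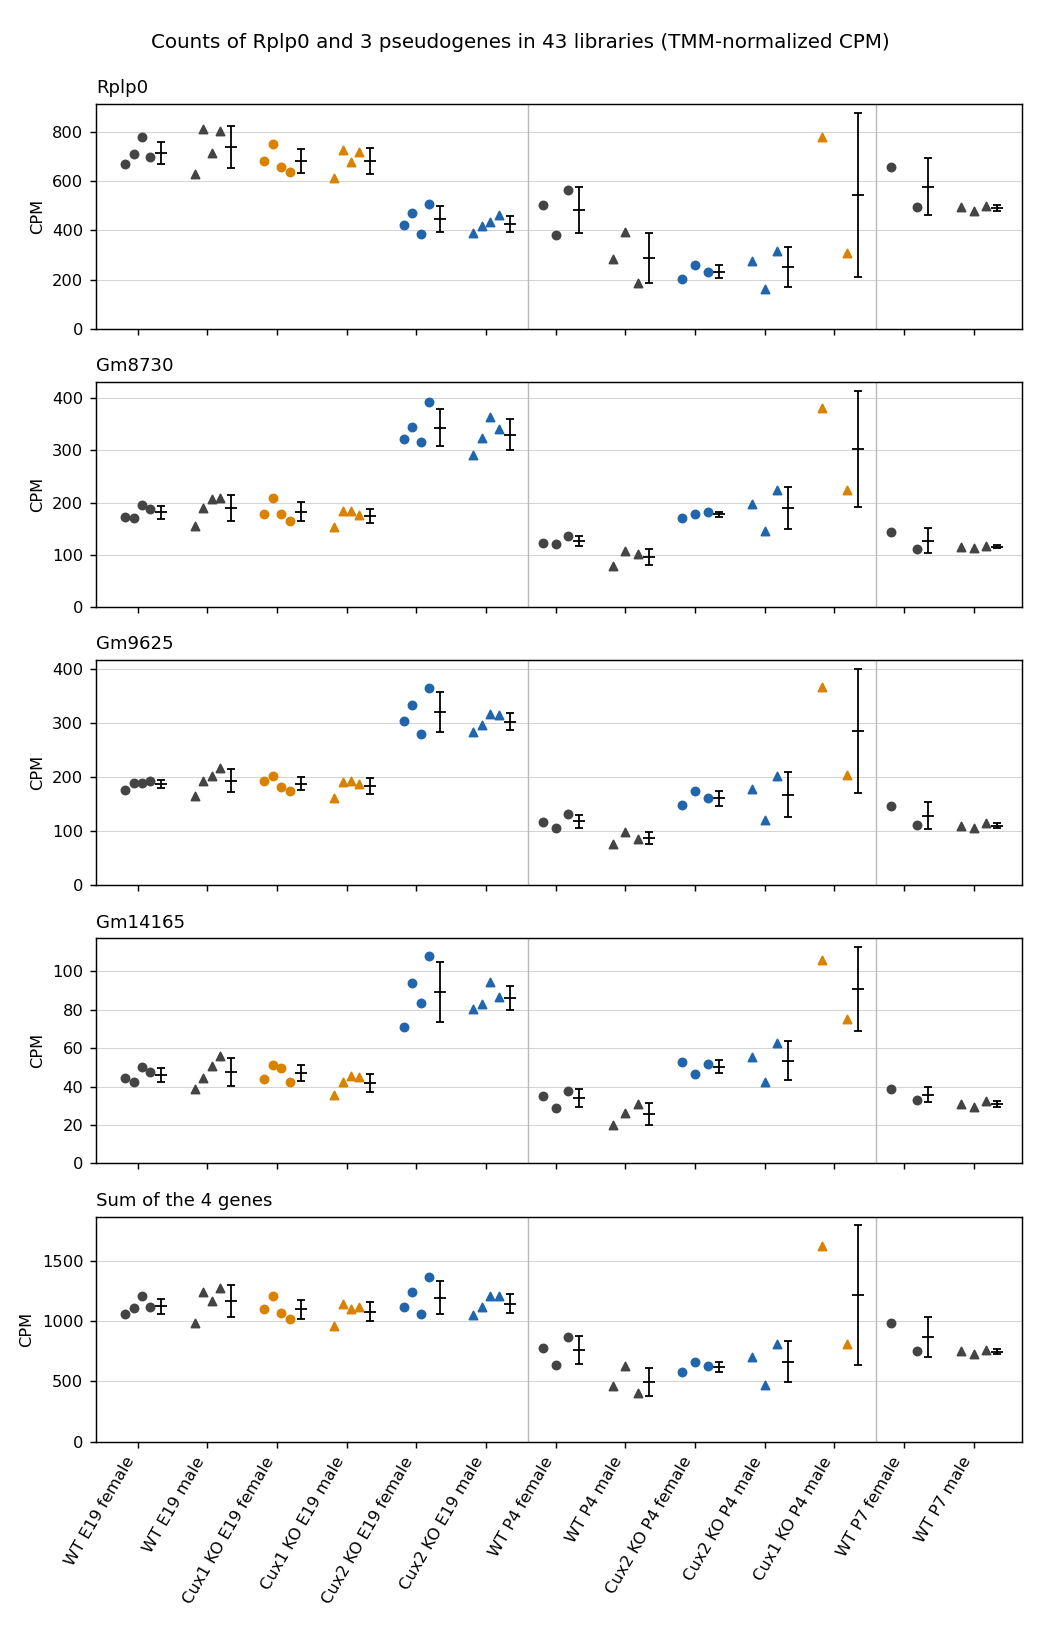
Level of each gene and of their sum (y axes, TMM-normalized CPM, linear scales from 0) in 43 libraries of 13 groups. Circles are female and triangles male libraries, gray is WT, orange Cux1 KO and blue Cux2 KO, and black bars give the mean ± SD. At E19 the 8 Cux2 KO libraries lie below WT for Rplp0 and above WT for the 3 pseudogenes, while the sums overlap.

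P4 libraries were not used to choose the genes. *Rplp0* was at 503, 382 and 562 CPM in WT females and at 205, 259 and 233 CPM in *Cux2* KO females, without overlap. In males it was at 284, 393 and 187 CPM in WT and at 274, 163 and 317 CPM in *Cux2* KO neurons, with overlapping groups. How many of all genes were without overlap in females was not counted, so nothing is read from it. The fitted log2FC was -1.05 in females (SE 0.168, edgeR adjusted p = 0.451), -0.21 in males (SE 0.346, adjusted p = 0.999) and -0.63 over both sexes (SE 0.237, adjusted p = 0.656). In males the log2FC of *Rplp0* was 0.09 without WT replicate 2 and 0.03 without *Cux2* KO replicate 2. The KO effect on *Rplp0* by sex, tested as an interaction, had an adjusted p of 0.693. By edgeR, no gene at all was called within a sex (0.0% of 19538 in females and 0.0% of 19720 in males, with 1443 and 1136 genes at an unadjusted p under 0.05). DESeq2, the tool of the study's methods, called 176 and 208 genes with its log2FC prior. Among them were *Rplp0* (log2FC -0.94, adjusted p = 1.3e-05) and *Gm8730* (0.00364) in females, and all 3 pseudogenes in males (adjusted p = 0.00445 to 0.0132).

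*Gm8730* was at 123, 120 and 137 CPM in WT and 171, 179 and 182 CPM in *Cux2* KO females at P4. In males it was at 78.7, 107 and 102 CPM in WT and 198, 146 and 224 CPM in *Cux2* KO neurons. All 6 KO libraries lay above all 6 WT libraries. Over both sexes the log2FC was 0.73 for *Gm8730* (SE 0.136), 0.69 for *Gm9625* (SE 0.145) and 0.81 for *Gm14165* (SE 0.156). The edgeR adjusted p-values were 0.173, 0.291 and 0.197, so none of the 4 genes passed with edgeR, where 0.0594% of 21878 genes did. With the prior of DESeq2 the pseudogenes passed (adjusted p = 0.000296 for *Gm8730*, 0.00343 for *Gm9625* and 0.00049 for *Gm14165*) and *Rplp0* did not (0.312). KO and WT libraries of both sexes together also stayed apart for *Gm14165*, at 42.6 to 62.5 CPM against 19.8 to 37.8, but overlapped for *Gm9625*. The share of all genes whose groups were apart at P4 was not counted, so nothing is read from these gaps.

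The summed counts of the 4 genes at P4 were at 641 ± 113 CPM in *Cux2* KO and 629 ± 178 CPM in WT neurons (n = 6 each). Their log2FC was 0.05 over both sexes (SE 0.179, edgeR adjusted p = 1.0), -0.295 in females (adjusted p = 0.68) and 0.40 in males (adjusted p = 0.999). The *Rplp0* share of the sum was 35.6%, 39.3% and 37.1% in *Cux2* KO females and 38.9%, 34.4% and 39.3% in *Cux2* KO males. In WT libraries it was 64.6%, 59.9% and 64.6% in females and 61.8%, 62.9% and 46.2% in males. All KO shares were below all WT shares, by a mean of 22.6 percentage points. A two-sided exact permutation of the genotype labels within sex gave p = 0.005, the smallest that these 12 libraries allow, and the value adjusted over the 12 comparisons of shares was 0.06. Within a sex, an exact permutation of 3 against 3 libraries cannot go below p = 0.1, which was reached in both sexes.

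The WT P4 male library at 46.2% (95% Wilson interval 45.6% to 46.8%) stood apart from the other WT libraries of any stage, which lay between 59.9% and 66.6%. It was also the deepest library, with 60559585 counts. Its *Rplp0* count of 12832 was lower than the 15785 and 15529 of the other WT males at P4, while its *Gm8730* count of 6960 was higher than their 4378 and 4220. Among the *Cux2* KO libraries at P4 the lowest shares, 34.4% and 35.6%, were those of the deepest libraries, with 59132160 and 49714656 counts. The methods removed reads duplicated above a ceiling before counting, and the part of depth in these shares was not tested beyond the fits given here. With the log2 library total as a covariate, an alternative chosen after seeing the data, the log2FC over both sexes was -0.64 for *Rplp0* (edgeR adjusted p = 0.0589), 0.71 for *Gm8730* (0.0307), 0.67 for *Gm9625* (0.00502) and 0.80 for *Gm14165* (0.142). Without that library the mean difference in share between *Cux2* KO and WT neurons was -25.3 percentage points.

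**Figure D3:**
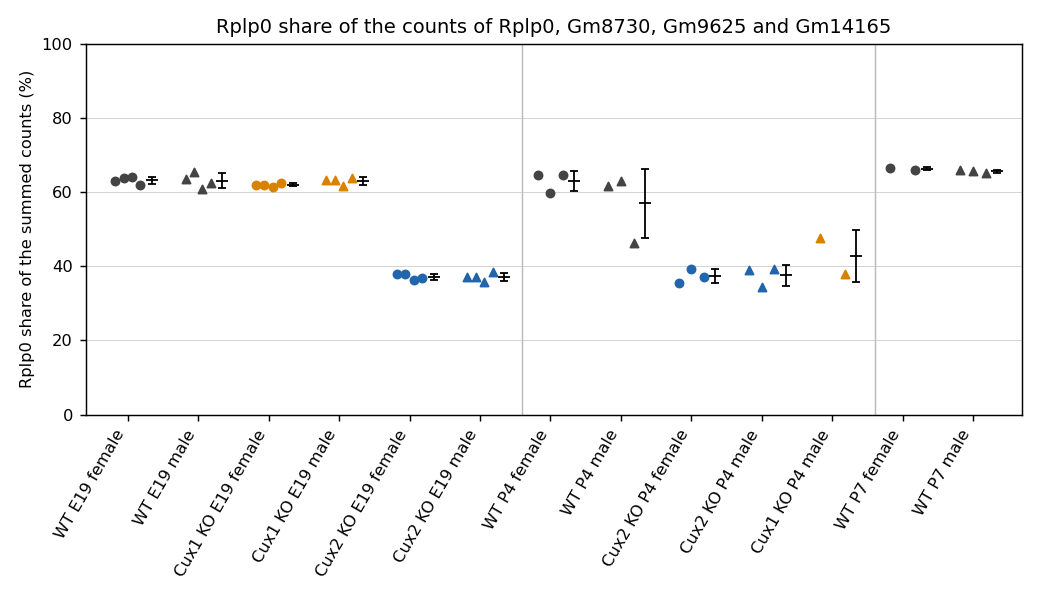
Rplp0 share of the counts of Rplp0, Gm8730, Gm9625 and Gm14165 (y axis, percent) in each library of 13 groups. Circles are female and triangles male libraries, colors are as for the levels, and black bars give the mean ± SD. Cux2 KO libraries lie between 34.4% and 39.3% at both stages, and 1 WT P4 male library lies at 46.2%.

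*Cux1* ΔC/ΔC neurons at E19, which carry a mutation of the paralog, were near WT for all 4 genes. *Rplp0* was at 682, 750, 658 and 635 CPM in *Cux1* KO females and 610, 725, 678 and 717 CPM in *Cux1* KO males, within the range of the WT libraries except for 610 CPM, which lay below the lowest. The log2FC over both sexes was -0.10 for *Rplp0* (SE 0.0633, edgeR adjusted p = 0.551), -0.07 for *Gm8730* (SE 0.0738), -0.04 for *Gm9625* (SE 0.0631), -0.09 for *Gm14165* (SE 0.0865) and -0.09 for the sum (SE 0.062). Adjusted p-values of the 3 pseudogenes lay between 0.746 and 0.839. None of the 4 genes passed, and 0.399% of the 18318 genes tested did. The *Rplp0* share was 62.5% ± 0.901 against 63.2% ± 1.45 (n = 8 each, two-sided exact permutation p = 0.312, adjusted 0.416). This comparison used the same WT libraries as that of *Cux2* KO neurons at E19.

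*Cux1* KO males at P4, from floxed mice with the CRE plasmid, differed from WT males in the 3 pseudogenes more than in *Rplp0*. *Gm8730* was at 381 and 224 CPM against 78.7, 107 and 102 CPM in WT males. *Gm9625* was at 367 and 204 CPM, above 76.9 to 98.8 CPM in WT males, and *Gm14165* was at 106 and 75.2 CPM, above 19.8 to 31.1 CPM. *Rplp0* was at 778 and 307 CPM, and the second of these values lay within the WT males. How many of all genes were apart in this comparison was not counted. The log2FC was 0.89 for *Rplp0* (SE 0.497), 1.64 for *Gm8730* (SE 0.284), 1.70 for *Gm9625* (SE 0.291), 1.80 for *Gm14165* (SE 0.291) and 1.28 for the sum (SE 0.359). The edgeR adjusted p-values were 0.36, 0.0773, 0.0773, 0.0764 and 0.143, and 0.0% of 19601 genes passed (4021 at an unadjusted p under 0.05).

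The tool mattered here, because DESeq2 with its prior called 3305 genes in that comparison, among them *Gm8730* (adjusted p = 2.61e-05), *Gm9625* (1.88e-05), *Gm14165* (7.67e-06) and the sum (0.01). When all P4 groups shared 1 estimate of spread, edgeR called 3415 genes, the 3 pseudogenes included (adjusted p = 0.000627 to 0.0011). With the log2 library total as a covariate the log2FC of *Rplp0* was -0.19 (adjusted p = 0.668). Without *Cux1* KO replicate 1 it was 0.0773 and without replicate 2 it was 1.41. The *Rplp0* share was 47.7% and 37.9% in the *Cux1* KO males (exact permutation p = 0.3, where 0.1 is the smallest possible). The median log2FC of all genes was -0.18 in this comparison. The 2 *Cux1* KO libraries had 17049 and 19115 detected genes against 20844 to 22546 in WT P4 libraries, and interneuron markers summed to 33.6 to 107 CPM (5 of 5 found) against 276 to 1020 CPM in WT at P4. The part of these differences between libraries in the result was not tested.

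**Figure D4:**
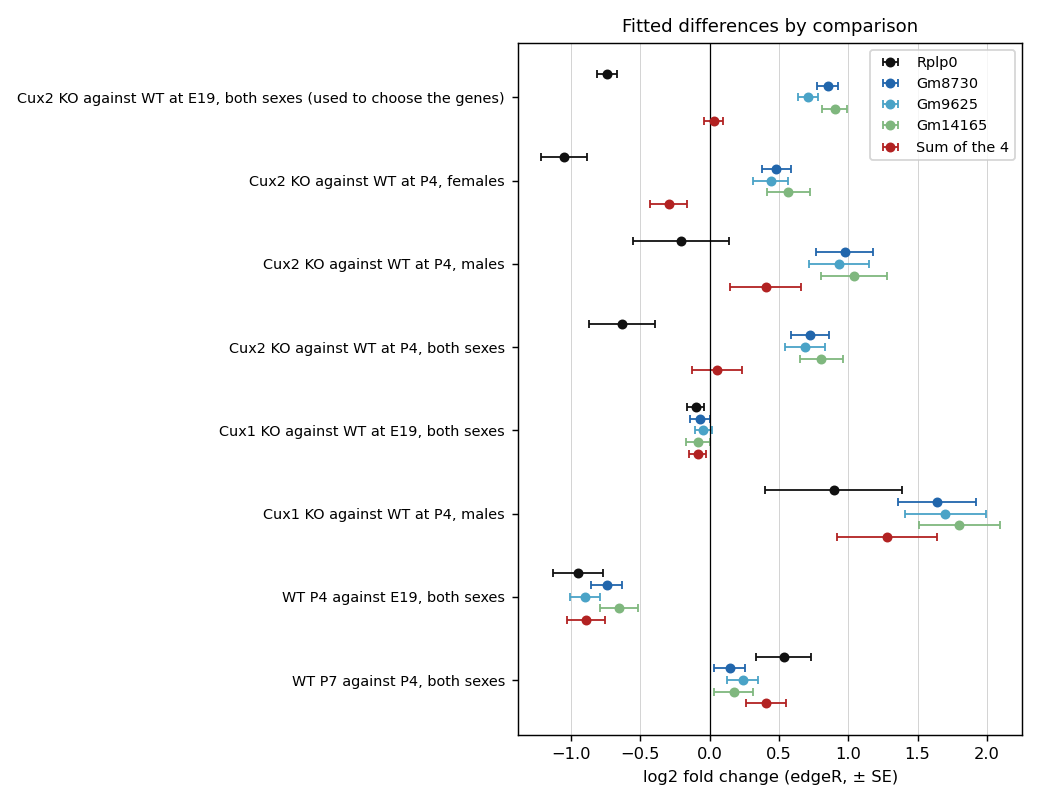
Fitted log2 fold change (x axis, edgeR, bars are SE) of each gene and of the sum of the 4 in 8 comparisons. The top comparison was used to choose the genes. In each Cux2 KO comparison Rplp0 lies left and the pseudogenes right of 0, and in Cux1 KO neurons at E19 all values lie between -0.10 and -0.04.

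WT neurons had the highest levels at E19. Between E19 and P4 all 4 genes fell, with a log2FC of -0.95 for *Rplp0* (SE 0.179, edgeR adjusted p = 0.000263), -0.74 for *Gm8730* (3.93e-05), -0.90 for *Gm9625* (3.88e-06), -0.65 for *Gm14165* (0.000697) and -0.89 for the sum (4.82e-05). In that comparison 67.2% of 20091 genes passed and 32.5% passed with lower levels at P4, so a call on these genes was common. WT libraries of P4 lay below those of E19 without overlap for each of the 4. How many of all genes did so was not counted, so nothing about the 4 is read from it. E19 was sequenced in an earlier round than P4 and P7, and stage and round cannot be told apart. P4 libraries were also deeper. With the log2 library total as a covariate the log2FC of *Rplp0* turned to 0.09 (adjusted p = 0.639), those of *Gm8730* (-0.31, 0.186) and *Gm14165* (-0.28, 0.395) no longer passed, that of *Gm9625* did (-0.38, 0.0419), and the call of the sum was lost (-0.09, adjusted p = 0.497). Astrocyte and radial glia markers (5 of 5 found) summed to 1110 to 1620 CPM in WT at E19, to 1960 to 4130 CPM at P4 and to 4860 to 6490 CPM at P7, and their part in the stage differences was not tested.

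At P7 *Rplp0* was at 658 and 495 CPM in WT females and at 496, 478 and 498 CPM in males. Against P4 the log2FC was 0.53 for *Rplp0* (SE 0.196, edgeR adjusted p = 0.137) and 0.15 to 0.24 for the pseudogenes, and none passed, while 5.68% of 22385 genes did. The *Rplp0* share was 65.1% to 66.6% at P7 (5.95 percentage points above P4, exact permutation p = 0.015, adjusted 0.09). Without WT P4 male replicate 3 the difference was 3.26 points, and over the libraries left out in turn the adjusted p lay between 0.06 and 0.24. WT females and males were compared at each stage, and none of the 4 genes passed by edgeR at E19, P4 or P7 (0.0461%, 0.0% and 0.0247% of genes passed, and at P4 1398 had an unadjusted p under 0.05 and 180 passed by DESeq2). The largest of these sex differences was that of *Rplp0* at P4, with a log2FC of 0.745, higher in females (SE 0.293, adjusted p = 0.675). With the log2 library total as a covariate it was -0.0141. The *Rplp0* share differed between the sexes by 0.128 percentage points at E19, 6.06 at P4 and 0.717 at P7 (exact permutation adjusted p = 0.943, 0.6 and 0.2). Without the WT P4 male library at 46.2%, replicate 3, the difference at P4 was 0.676.

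Across all 43 libraries the pseudogenes varied less in proportion to each other than *Rplp0* did to *Gm8730*. The ratio of *Gm8730* to *Gm9625* counts ran from 0.894 to 1.19 (median 1.03), and that of *Gm14165* to *Gm8730* from 0.222 to 0.336 (median 0.26). At E19 the first ratio was 0.894 to 1.04 in WT and 1.03 to 1.15 in *Cux2* KO libraries. The ratio of *Rplp0* to *Gm8730* counts ran from 1.12 to 4.58. It was 3.45 to 4.28 in WT and 3.6 to 4.08 in *Cux1* KO libraries at E19, 1.19 to 1.36 and 1.12 to 1.45 in *Cux2* KO libraries at E19 and P4, 1.37 and 2.04 in *Cux1* KO libraries at P4, 1.84 to 4.09 in WT at P4 and 4.21 to 4.58 in WT at P7. These ratios and the group means compared next include the E19 libraries that chose the genes. The likeness of the pseudogenes to each other, and their unlikeness to *Rplp0*, are thus in part fixed by the choice. Over the 13 group means of log2 CPM, each gene centred on its own mean, the 3 genes most like *Gm8730* among 23957 were *Gm9625* (root mean square difference 0.083), *Gm14165* (0.0894) and *Rplp0-ps1* (0.199). Those most like *Rplp0* were *Rps26* (0.3), *Rps9* (0.313), which encode proteins of the small subunit, and *Gm15730* (0.314).

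A search of the M39 transcripts with the *Rplp0* mRNA found 19 other genes with a match, of which 16 were in the count table, the 3 pseudogenes above included. These are not 19 separate copies. *Gm73188* is an antisense lncRNA that overlaps *Rplp0* itself. *Zfp493* spans *Gm9625*, *Gm63660* and *Gucd1* span *Gm5779*, and *Gm74161* spans *Gm5340*. *Zfp493* and *Gucd1* are protein-coding genes that were found because their transcripts include a copy. *Rplp0-ps1* (94.09% identical, chromosome 3) carried the base shared by the 3 pseudogenes at 7 of the 7 positions, and was at 37.6 ± 4.66 CPM in WT and 47.2 ± 4.61 CPM in *Cux2* KO neurons at E19 (log2FC 0.33). *Gm6278* (92.85%, chromosome 16) carried it at 2 positions and the *Rplp0* base at 1, and was at 132 ± 11.4 and 154 ± 16.0 CPM (log2FC 0.22). Both values were lower than the log2FC of 0.71 of *Gm9625*, the smallest of the 3 chosen pseudogenes. *Gm5948* and *Gm8199* were also higher in *Cux2* KO neurons at E19 but were not among the 4 chosen. At P4 the log2FC in *Cux2* KO neurons was 0.41 for *Rplp0-ps1* (edgeR adjusted p = 0.623) and 0.22 for *Gm6278* (0.893).

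*Gm5948*, an 85.50% identical processed pseudogene on chromosome 10 that is not among the 4, was counted almost only in mutant libraries. It had 0 counts in all 8 WT and all 8 *Cux1* KO libraries at E19 and 118 to 182 counts in the 8 *Cux2* KO libraries (9.38 ± 1.55 CPM). A count of 0 leaves room for up to 3 counts, and against that floor in the shallowest WT library it was at least 39.9-fold higher in *Cux2* KO neurons. At P4 it had 188 to 367 counts in *Cux2* KO, 238 and 319 in *Cux1* KO and 0 in WT libraries other than 1 male with 7. It had 0 counts in the 5 WT libraries of P7. None of the 895 windows of 60 bases in the *Rplp0* coding sequence occurred in it. It carried the base shared by the 3 pseudogenes at 4 of the 7 positions and the *Rplp0* base at 2.

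**Figure D5:**
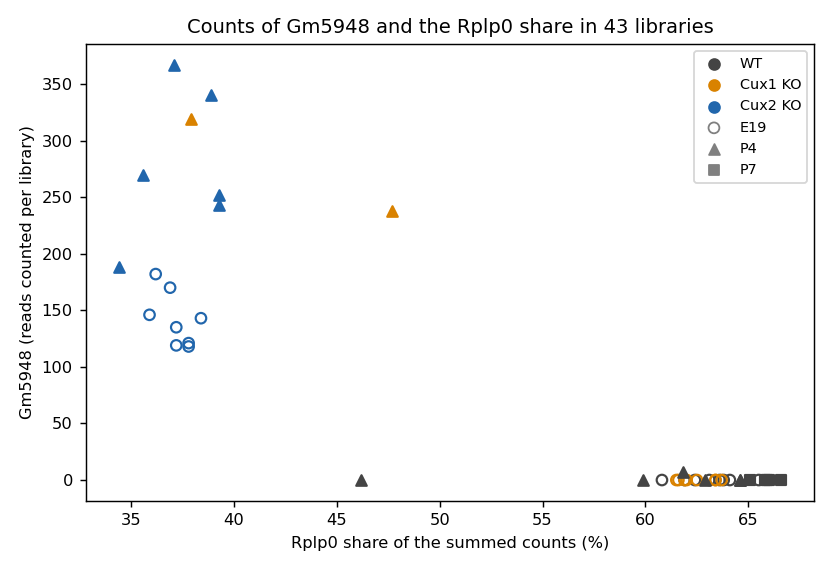
Reads counted on Gm5948 (y axis, raw counts) against the Rplp0 share of the summed counts of the 4 genes (x axis, percent) in 43 libraries. Open circles are E19, triangles P4 and squares P7, gray is WT, orange Cux1 KO and blue Cux2 KO. The libraries with over 100 counts are the 14 Cux2 KO libraries and the 2 Cux1 KO libraries of P4, and the WT P4 male library at a share of 46.2% has 0 counts.

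Most of the other pseudogene copies had few counts. *Gm8199* (chromosome X), which carried the shared base at all 7 positions, had 0 to 2 counts in WT and 7 to 22 in *Cux2* KO libraries at E19, 0 to 3 in WT and 7 to 30 in *Cux2* KO libraries at P4, and 4 and 17 in *Cux1* KO males at P4. *Gm8255* had 0 counts in every WT library. In *Cux2* KO neurons it had 0 to 8 at E19, with 3 of 8 libraries above 0, and 0 to 201 at P4, with a median of 2. *Gm4866* had 0 to 9 counts at E19 and 8 to 55 at P4, and *Gm5340*, *Gm5779* and *Gm48928* had at most 5, 1 and 3 counts in any library. *Gm15355* and *Gm18473* had 0 counts in all libraries. *Zfp493* (log2FC -0.39, edgeR adjusted p = 0.993) and *Gucd1* (-0.02, adjusted p = 1.0) did not pass in *Cux2* KO neurons at P4.

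None of the partners of P0 passed in *Cux2* KO neurons. In *Cux2* KO neurons at E19 the log2FC was -0.01 for *Rplp1* (SE 0.0984, edgeR adjusted p = 0.993) and 0.03 for *Rplp2* (SE 0.0885, 0.964). At P4 it was 0.05 for *Rplp1* and -0.00158 for *Rplp2* (edgeR adjusted p = 1.0 for both). Of 9 genes of the stalk and its factors other than *Rplp0* (*Rplp1*, *Rplp2*, the stalk base gene *Rpl12*, the stalk assembly factor *Mrto4*, the elongation factors *Eef2* and *Eef1a1*, and *Eif6*, *Efl1* and *Sbds* of subunit maturation), 0 passed in *Cux2* KO neurons at E19 (-0.10 to 0.11, beside 0.12% of all genes) and 0 at P4 (-0.57 to 0.07, beside 0.0594%). In *Cux1* KO males at P4 0 passed (-1.02 to 1.48, beside 0.0%), with a median log2FC of 0.81. In WT neurons 5 of the 9 fell from E19 to P4, where 32.5% of all genes did, among them *Rplp1* (-1.38, adjusted p = 6.65e-07), *Rplp2* (-1.50, 6.24e-08) and *Eef2* (-2.54, 2.92e-11), while *Eif6* (0.94) and *Sbds* (1.59) rose. From P4 to P7 *Rplp1* (0.78, adjusted p = 0.00567) and *Rplp2* (0.59, 0.0191) rose.

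Of 78 other cytoplasmic ribosomal protein genes, all tested, 0 passed in *Cux2* KO neurons over both sexes at E19 (median log2FC -0.00231, beside 0.00104 for all genes) and 0 at P4 (median -0.05, beside 0.02). From E19 to P4 in WT neurons 71 of them fell and 1 rose (median -0.94, beside 0.04 for all genes), where 32.5% of all genes fell and 67.2% passed in either direction. In *Cux1* KO males at P4 0 of the 78 passed, beside 0.0% of all genes, but their median log2FC was 0.99 (-0.07 to 1.94), beside -0.18 for all genes, 0.89 for *Rplp0* and 1.28 for the sum. *Rpl29*, a gene of the large subunit, had the largest difference of the list in *Cux2* KO neurons at P4 (log2FC -1.35, SE 0.547, edgeR adjusted p = 0.705). It was at 32.8 to 40.1 CPM in WT and 1.57 to 24.8 CPM in *Cux2* KO libraries at P4, without overlap. At E19 it was at 2.04 to 61.4 CPM in WT and 0.851 to 24.9 CPM in *Cux2* KO libraries (log2FC -3.21, adjusted p = 0.0501, and in males alone -4.55, adjusted p = 7.4e-05, where 0.121% of 17332 genes passed), and at 29.0 to 58.9 CPM in *Cux1* KO libraries. *Rpl13a*, also of the large subunit, was at 18.2 ± 2.62 CPM in *Cux2* KO and 21.8 ± 2.86 CPM in WT neurons at P4 (n = 6 each), with overlapping groups. How many of all genes were apart at P4, as *Rpl29* was, was not counted.

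On chromosome 5, 51 other genes of the table lay within 500000 bases of *Rplp0*. In *Cux2* KO neurons at E19, 29 of them were tested and 2 passed, beside 0.12% of all genes. *Gcn1*, the nearest tested protein-coding gene beyond the 3′ end (115703313 to 115761272), encodes a ribosome-binding protein that activates the kinase GCN2, and was higher (log2FC 0.465, SE 0.0754, edgeR adjusted p = 0.00646). *Gatc* (115467818 to 115479270), a subunit of the mitochondrial amidotransferase that acts on glutamine tRNA, was lower (-0.36, SE 0.0694, adjusted p = 0.0395). *Pxn*, which encodes the focal adhesion protein paxillin and is the nearest before the 5′ end (115644691 to 115694047), differed by 0.16 (adjusted p = 0.541). At P4, 31 were tested, and beside 0.0594% of all genes the processed pseudogene *Gm13841* (115939736 to 115940218) passed (1.05, adjusted p = 0.0391), while *Gcn1* (-0.19, adjusted p = 0.993) and *Pxn* (0.04, adjusted p = 1.0) did not. The median log2FC of the tested neighbors was -0.01 at E19 and 0.04 at P4.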

How the data were processed

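GFP+ L2/3 neurons were measured by RNA-seq in 43 libraries. Per the study's methods, the authors aligned single-end reads of 60 bases to GRCm39 with HISAT2 (Y chromosome masked for females, its pseudoautosomal regions for males), discarded copies of reads duplicated beyond a set number, and used featureCounts to assign primary alignments to Ensembl genes. The authors deposited raw counts per gene, not normalized. The strand setting and the choice of a primary place among equally good ones are not given in the sources used here. This discarding can lower the counts of abundant RNAs in deep libraries.

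Counts were normalized by TMM and compared by the two-sided quasi-likelihood test of edgeR 4.0.16 (R 4.3.3) on genes kept by filterByExpr, with Benjamini-Hochberg adjustment over all genes tested. The sum of the 4 genes was tested in a separate fit, in which it replaced their rows. CPM used the TMM factors of all libraries, and log2 CPM a prior count of 2. Shares were compared by a two-sided exact permutation test, adjusted over 12 comparisons with scipy 1.17.1. Genotype or stage was permuted within sex, and in the comparisons of WT females with males sex itself was permuted. Alternatives were DESeq2 1.42.0 with and without its prior, its size factors in edgeR, no filter, all groups in 1 fit, a replicate block, leaving out each library, and other denominators or sums. The library total as a covariate was added after seeing the data. Copies were found with blastn 2.17.0 in GENCODE M39 transcripts (at least 80% identity over 200 bases). The genes and the lists were chosen with earlier results of these data known. Named genes were the 4, *Cux1*, *Cux2*, all copies, *Rplp1*, *Rplp2*, the 3 ribosomal protein genes that differed most in *Cux2* KO at P4, the nearest tested and the called neighbors, and the 3 genes of most similar profile. *Gatc*, *Gcn1* and *Gm13841* fall under called neighbors. The stalk factors were named as a list. A result that falls under this rule is not reported here.

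The edgeR test was tested on simulated data. For *Cux1* KO females at E19 (17046 genes) it called 72.4% of genes changed by a log2FC of 1 and 96.9% of those changed by 2. For *Cux2* KO over both sexes at P4 (20624 genes) it called 35.4% and 55.3%. For libraries with the same replicate number, the mean correlation of their deviations lay between -0.0692 and 0.264 over 10 comparisons. In none of the 8 with 3 or more pairs were all pairs over 0.1. In WT females against males at P7, with 2 pairs, both were over 0.1 (0.214 and 0.314). Libraries were not paired in the main fits.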

Additional observations from a re-analysis of the deposited data

Results flagged for a closer look

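Among 36 sets of 4 libraries (6 measures in each of 6 groups at E19) examined for a library far from the others, 1 was found. *Cux1* KO E19 male replicate 3 had an *Rplp0* share of 61.6%, below the other 3 libraries of its group, which lay between 63.4% and 63.7%. Such a gap is found by chance in about 1 of 20 groups. The share of this library was within the range of the WT libraries at E19 (60.8% to 65.5%).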

How the results depend on the processing

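The direction of *Rplp0*, of the pseudogenes and of the share in *Cux2* KO neurons over both sexes was the same under each alternative run at E19 and P4. Leaving out each library in turn moved the log2FC of *Rplp0* between -0.778 and -0.704 at E19 and between -0.783 and -0.532 at P4, and the share difference at P4 between -25.3 and -21.1 percentage points (adjusted p 0.06 to 0.09). The log2FC of the sum moved between -0.00933 and 0.059 at E19 and between -0.0555 and 0.138 at P4. With every copy in the denominator the share difference at E19 was -23.0 percentage points. In *Cux1* KO males at P4 the sum passed with the prior of DESeq2 (1.18), without its shrinkage (1.28) and with all groups in 1 fit (1.29), and it ranged from 0.693 to 1.69 when a library was left out. There, without *Cux1* KO replicate 2, *Gm9625* (2.05, edgeR adjusted p = 0.0434) and *Gm8730* (1.97, 0.0446) passed, the lone KO library being assumed to vary like the WT libraries. With the library total as a covariate the log2FC of *Rplp0* from WT E19 to P4 was 0.0851. The cause of these shifts was not tested.

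The number of genes called depended on the setting. For *Cux2* KO at P4 over both sexes it was 13, and 103 and 181 by DESeq2 with and without its prior, 6 with all groups in 1 fit, 2 with the replicate block and 4 to 8 without 1 library. For *Cux2* KO at E19 it was 22, and 20 to 92 over the alternatives. For *Cux1* KO at E19 it was 73, and 37 to 321. For *Cux1* KO at P4 it was 0 to 639 without 1 library and 4178 by DESeq2 without shrinkage. For WT P7 against P4 it was 1272, with 3147 by DESeq2 and 305 with the replicate block. For WT P4 against E19 it was 13494, and 8727 with the library total. With the replicate block in *Cux2* KO at P4 the log2FC was -0.63 for *Rplp0* and 0.72 for *Gm8730* (adjusted p = 0.941 for both). Libraries share only a number, and no call of the 4 genes in the text changed under the block.

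Totals at P4 ran from 19499125 to 60559585, and duplicate removal, the choice of primary alignments and the strand setting could not be changed from the counts.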
